A study of Mus musculus with 6 samples.

Results

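The genes described here encode the subunits of the proteasome and of the particles that cap it. They were chosen by symbol: the protein-coding genes named Psma, Psmb, Psmc, Psmd or Psme followed by a number, 44 of the 55450 genes in the count table. No measured value entered that choice, but the family was proposed with results of the same comparison already known, among them those of Psme3, so the differences between groups below are a description. The family holds 8 core alpha genes, 8 core beta genes, 3 immunoproteasome genes, 20 genes of the 19S regulatory particle (6 ATPases and 14 non-ATPase genes) and 5 genes of the activators.

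Each library was made from 2000 sorted cells of C57BL6/SJL bone marrow that lacked lineage markers and carried Sca-1, taken 12 weeks after transplantation. The recipients had been lethally irradiated and received LSK/SLAM stem cells in which microRNA-125a (miR-125a) was overexpressed, or cells whose miR-125a expression the labels call endogenous and whose titles carry the letters EV. Neither the vector nor its promoter is named in the sources used here, and the labels leave it unsaid whether the replicates are different recipients. The p-values therefore cover only library-to-library spread, part or all of which may be technical. The counts cover overexpressed replicates 2 and 3 and endogenous replicates 1 and 3 (n = 2 per group). The other 2 of the 6 labelled libraries were not analysed here.

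The proteasome is the barrel-shaped protease that degrades proteins tagged with ubiquitin. Its core is made of rings of alpha subunits, which form the gate, and rings of beta subunits, of which Psmb5, Psmb6 and Psmb7 carry the proteolytic sites. In immune cells and under interferon, Psmb8, Psmb9 and Psmb10 replace those catalytic subunits in newly built cores, and the resulting immunoproteasome is known for making peptides for MHC class I. The 19S particle binds ubiquitin chains, removes them and feeds unfolded substrate into the core with a ring of ATPases, while the Psme activators open the gate without ATP.

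The microRNA of the study is shown first, with its seed (bases 2 to 8) in capitals, followed by every match to that seed in the members' 3' UTRs, with the match in capitals. Sequences of the microRNA are RefSeq's (GRCm38.p6, chr17:17830817-17830840, plus strand), and the 3' UTRs are the longest that GENCODE vM21 gives on protein-coding transcripts.
miR-125a-5p: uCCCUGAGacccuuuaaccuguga
Psmc1 site: gcccacagtcgtcCTCAGGGatggggagct
Psmb11 site: ccactgcctcctcCTCAGGGctgggcatcc
Of 44 members, 2 held the 7 letters CTCAGGG, a share of 4.55%, against 13.1% of the 21045 genes with an annotated 3' UTR. The Psmc1 match lies at chr12:100123208-100123214 (plus strand), 16 bases into its 3' UTR, and is followed by an A. The Psmb11 match lies at chr14:54627264-54627270 (plus strand). Psmc1, a 19S ATPase, had 23 and 38 counts in overexpressed 2 and 3, against 32 and 34 counts in endogenous 1 and 3. Psmb11, the beta subunit known from the thymic cortex, had 5 and 17 counts in overexpressed 2 and 3, against 8 and 12 counts in endogenous 1 and 3. The groups overlapped for both genes, with log2 fold changes (overexpressed over endogenous) of -0.0077 ± 0.475 (SE) for Psmc1 and 0.25 ± 0.61 for Psmb11. The sign for Psmc1 turned with the scaling, its value being 0.017 with relative log expression (RLE) size factors. The sign for Psmb11 turned without overexpressed 3, to a value of -0.72. No such letters stand in the longest 3' UTR of Psme3 or Psme1, the members with the smallest p-values.

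Proteasome genes of these libraries were covered thinly. Total counts ran from 654126 to 737431 per library, and the 44 genes together held 926 and 398 counts in overexpressed 2 and 3, against 1604 and 796 in endogenous 1 and 3. At least 1 count was seen for 40 and 40 members in overexpressed 2 and 3, and for 37 and 44 members in endogenous 1 and 3. At least 10 counts were seen for 16 and 11 members in overexpressed 2 and 3, against 16 and 22 in endogenous 1 and 3, and 16 members stayed under 10 counts in all 4 libraries. As a floor for signal that marrow cells should not produce, 1479 genes of olfactory, vomeronasal and trace-amine receptors were used: 95% of them had a mean of no more than 8.30 counts per kb of exon. Of the 44 members, 8 (18.2%) lay above that value, against 9.34% of 21951 protein-coding genes. These were Psmd8, Psmc6, Psmd14, Psmb1, Psmc1, Psmb6, Psma3 and Psme3, in order of mean counts per kb from 41.3 for Psmd8 to 10.2 for Psme3, with Psmc3 (7.96) and Psma7 (7.90) just under the value. Without endogenous 1 the number above the value was 4.

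Ly6a, which encodes the Sca-1 used in the sort, had 1 and 1 counts in overexpressed 2 and 3, against 1 and 0 in endogenous 1 and 3. The 14 marker genes of stem and progenitor cells, Ly6a among them, summed to 593 and 302 CPM (counts scaled to a common library total) in overexpressed 2 and 3, against 365 and 458 CPM in endogenous 1 and 3. The highest sum of counts among them was that of Flt3, a receptor of early progenitors (242 and 33, against 56 and 37), and Cd34 had 58 and 38, against 32 and 26. The pan-leukocyte gene Ptprc had 51 and 60 counts in overexpressed 2 and 3, against 19 and 115 in endogenous 1 and 3. Markers of other marrow cells, in CPM, varied between libraries. The 11 B and plasma cell genes summed to 4829 and 501 in overexpressed 2 and 3, against 1200 and 546 in endogenous 1 and 3. The 9 erythroid genes summed to 485 and 219, against 595 and 3482. The 11 neutrophil and monocyte genes summed to 15946 and 11118, against 7448 and 8969, the 10 dendritic cell genes to 1372 and 1326, against 1732 and 1970, and the 8 T and NK cell genes to 321 and 79.6, against 65.7 and 111. Mitochondrially encoded genes took 0.558% of the counts of overexpressed 3 and between 4.14% and 6.29% in the other libraries. In such bulk samples, fewer cells of a type and less RNA per cell cannot be told apart.

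**Figure D1:**
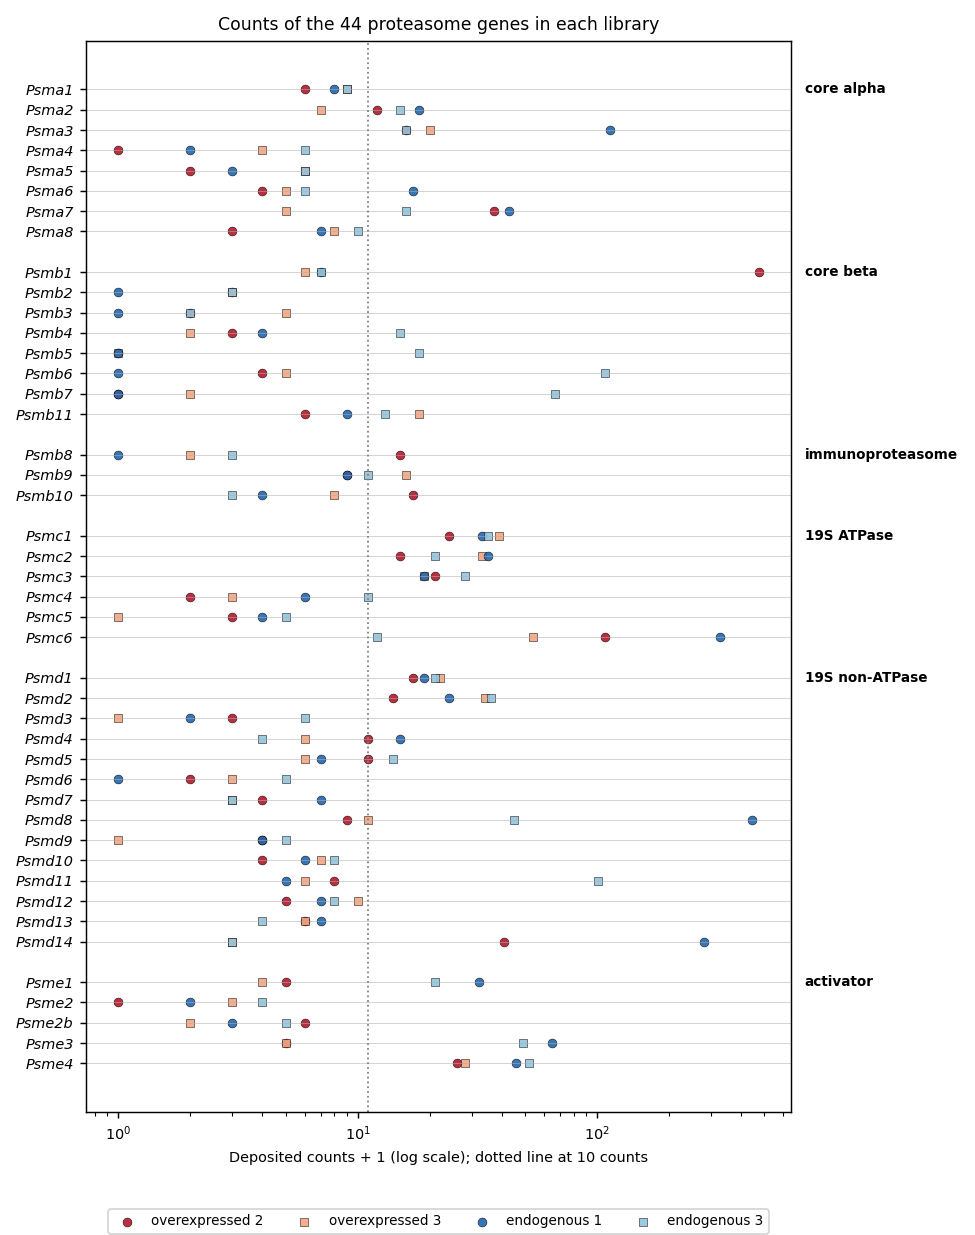
Deposited counts plus 1 (log axis) of the 44 proteasome genes, grouped by class, with 1 point per library (overexpressed replicates 2 and 3 in reds, endogenous replicates 1 and 3 in blues). Most genes sit near or left of the dotted line at 10 counts, while Psma3, Psmb1, Psmb6, Psmb7, Psmd8 and Psmd11 have 1 library far to the right of the others.

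The counts of many members came mostly from 1 library. Among the 29 members with a sum of at least 20 counts, 13 (44.8%) had over 50% of their scaled counts in a single library, against 15.5% of 13197 protein-coding genes with such a sum. That library was endogenous 1 for 7 of them, endogenous 3 for 4, overexpressed 2 for 2 and overexpressed 3 for 0. Members above the receptor value did so in 7 of 8 cases, against 39.2% of the 2014 protein-coding genes above it. The exception was Psmc1.

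**Figure D2:**
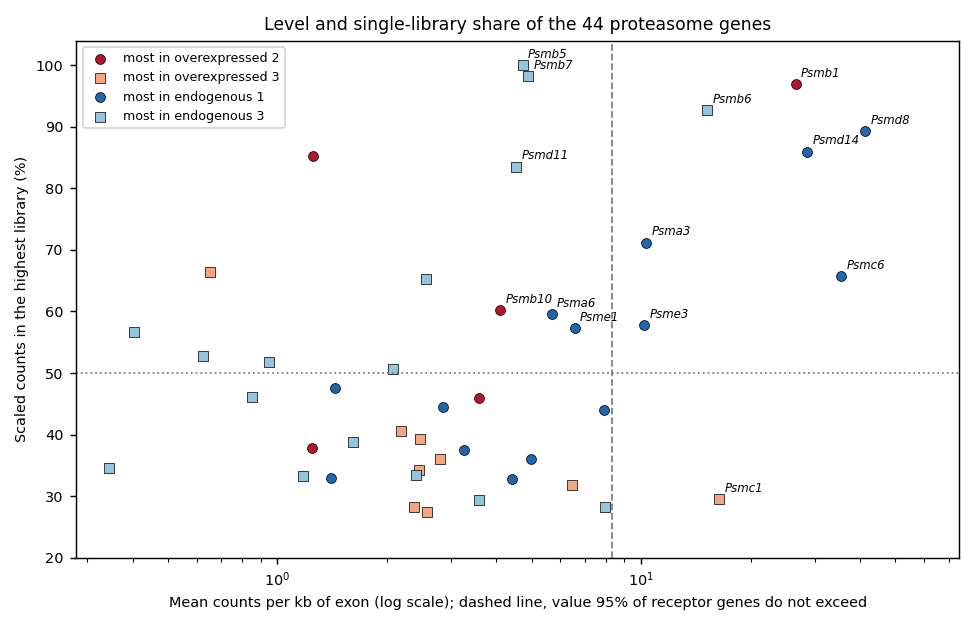
Mean counts per kb of exon (log axis) of the 44 genes against the percentage of their library-size-scaled counts that fell in the highest library, which sets colour and shape. Of the 8 genes right of the dashed line (8.30 counts per kb), 7 lie above the dotted line at 50%, and Psmc1 lies below it.

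Core alpha genes were low in both groups apart from Psma3 and Psma7. Summed over the 8 genes, this class held 98.99 and 78.2 CPM in overexpressed 2 and 3, against 310 and 107 in endogenous 1 and 3. The groups did not overlap, but the log2 ratio of the means was -1.23 with all libraries and -0.27 without endogenous 1. Psma3, a subunit of the alpha ring (chromosome 12, 70974621 to 70996347), had 15 and 19 counts in overexpressed 2 and 3, against 112 and 15 in endogenous 1 and 3. Only endogenous 1 stood apart there, and the log2 fold change of -1.89 ± 1.03 turned to 0.56 without it. Psma7 had 36 and 4 counts in overexpressed 2 and 3, against 42 and 15 in endogenous 1 and 3, so that replicates of a group differed more than the groups. Its log2 fold change was -0.39 ± 1.05, and it was positive without overexpressed 3 (0.49) or without endogenous 1 (0.86). Psma2 had 11 and 6 counts in overexpressed 2 and 3, against 17 and 14 in endogenous 1 and 3, with a log2 fold change of -0.73 ± 0.53. Psma1, Psma4, Psma5 and Psma8, the last of which is known from testis, stayed under 10 counts in every library, and Psma6 had 3 and 4 counts against 16 and 5.

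Among the core beta genes, Psmb1 gave the largest raw count of the family in any library, in overexpressed 2. Psmb1, a non-catalytic beta subunit on chromosome 17 (15475021 to 15499751), had 472 and 5 counts in overexpressed 2 and 3, against 6 and 6 in endogenous 1 and 3. Thus 97.0% of its scaled counts came from overexpressed 2, and the other overexpressed library was at the level of both endogenous ones. Psmb1 made up 97.3% of the core beta counts of that library.

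The 3 genes of the constitutive catalytic subunits had their counts in endogenous 3. Psmb6, the caspase-like subunit, had 3 and 4 counts in overexpressed 2 and 3, against 0 and 107 in endogenous 1 and 3. Psmb7, the trypsin-like subunit, had 0 and 1 counts, against 0 and 66, and Psmb5, the chymotrypsin-like subunit, had 0 and 0 counts, against 0 and 17. Endogenous 1 was thus at 0 for each of the 3, below or level with the overexpressed libraries. From summed counts scaled by effective library size, Psmb7 was 60.3-fold lower with overexpression (95% exact interval 10.4 to 2416) and Psmb5 at least 5.17-fold lower, taking 3 counts over the overexpressed group as its floor. Intervals and floors cover counting error only, and both values rest on endogenous 3: without it both groups hold 0 or 1 counts. Exons of Psmb7 overlap those of Nek6 on the opposite strand over 405 bases, and the use of strand in counting is not stated, so reads of the overlap cannot be told apart. Nek6 had 12 and 7 counts in overexpressed 2 and 3, against 21 and 14 in endogenous 1 and 3. The processed pseudogenes Psmb5-ps, Psmb6-ps, Psmb6-ps2 and Psmb7-ps2 had between 0 and 5 counts per library. Of the remaining core beta genes, Psmb2, Psmb3 and Psmb4 had between 0 and 4 counts in all libraries but endogenous 3, where Psmb4 had 14.

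Promoters of Psmb5 and Psmb6, which were high in the same library, are shown because a shared letter pattern was found in both. The promoter of Psmb7 is not among those listed and was not searched. The pattern TGACNNNGC (or GCNNNGTCA, its reverse), the core of the antioxidant response element that the transcription factor Nrf1 (Nfe2l1) is known to use at proteasome genes, was searched on both strands from 250 bases before to 50 bases after each start. It stands in capitals in both sequences, which are RefSeq's (GRCm38.p6, chr14:54617946-54618245 on the minus strand for Psmb5 and chr11:70525107-70525406 on the plus strand for Psmb6).
Psmb5 promoter: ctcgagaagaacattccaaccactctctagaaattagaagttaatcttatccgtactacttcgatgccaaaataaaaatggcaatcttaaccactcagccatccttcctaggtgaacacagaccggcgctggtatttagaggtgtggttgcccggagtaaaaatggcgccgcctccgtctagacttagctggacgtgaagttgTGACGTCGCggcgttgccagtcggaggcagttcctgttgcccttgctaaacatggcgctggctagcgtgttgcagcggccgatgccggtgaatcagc
Psmb6 promoter: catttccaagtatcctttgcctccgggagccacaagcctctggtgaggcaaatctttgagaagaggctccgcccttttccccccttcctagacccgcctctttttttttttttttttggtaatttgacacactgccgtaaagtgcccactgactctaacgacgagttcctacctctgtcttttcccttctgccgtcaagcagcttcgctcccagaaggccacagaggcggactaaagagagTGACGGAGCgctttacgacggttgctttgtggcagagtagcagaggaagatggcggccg
Of the 37 members with a listed promoter, 6 held the pattern (Psmb5, Psmb6, Psmc6, Psmd9, Psmd12 and Psme4), while 12.4% of all 32851 listed promoters did. The 6 genes did not share a profile across libraries: Psmc6 was highest in endogenous 1, and Psme4 was almost even within groups. A match is a run of letters in this window and no evidence of binding.

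Immunoproteasome genes were the 1 class whose sum was higher in both overexpressed libraries. Their summed share was 51.5 and 32.1 CPM in overexpressed 2 and 3, against 16.8 and 19.7 in endogenous 1 and 3, and the groups did not overlap. With means of 41.8 ± 13.7 and 18.2 ± 2.01 (SD, n = 2 each), the log2 ratio was 1.20, from 0.82 to 1.499 without 1 library. Psmb10, which replaces Psmb7, had 16 and 7 counts in overexpressed 2 and 3, against 3 and 2 in endogenous 1 and 3, with no overlap. Psmb8, which replaces Psmb5, had 14 and 1 counts, against 0 and 2, so only overexpressed 2 stood apart. Its summed counts were 8.21-fold higher with overexpression, with an exact counting interval of 1.91 to 74.0. Psmb9, which replaces Psmb6, had 8 and 15 counts, against 8 and 10, a log2 fold change of 0.47 ± 0.48. None of the 3 lay above the receptor value (4.11 counts per kb for Psmb10, 2.80 for Psmb9 and 1.26 for Psmb8). Overexpressed 2, where Psmb8 and Psmb10 were highest, was also the library with the largest sum of B and plasma cell markers, of T and NK cell markers and of neutrophil and monocyte markers. The neutrophil and monocyte sum was higher in both overexpressed libraries without overlap (15946 and 11118 CPM, against 7448 and 8969 CPM). Most of it was Ltf, with 8490 and 7413 of 11759 and 7960 counts, against 4538 and 3735 of 4872 and 6389. S100a8 (739 and 205 counts, against 36 and 1130) and Lyz2 (65 and 30, against 0 and 159) overlapped between groups. Of the 10 such genes tested, 9 had positive and 1 had a negative log2 fold change. The part of these markers in the result was not tested.

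**Figure D3:**
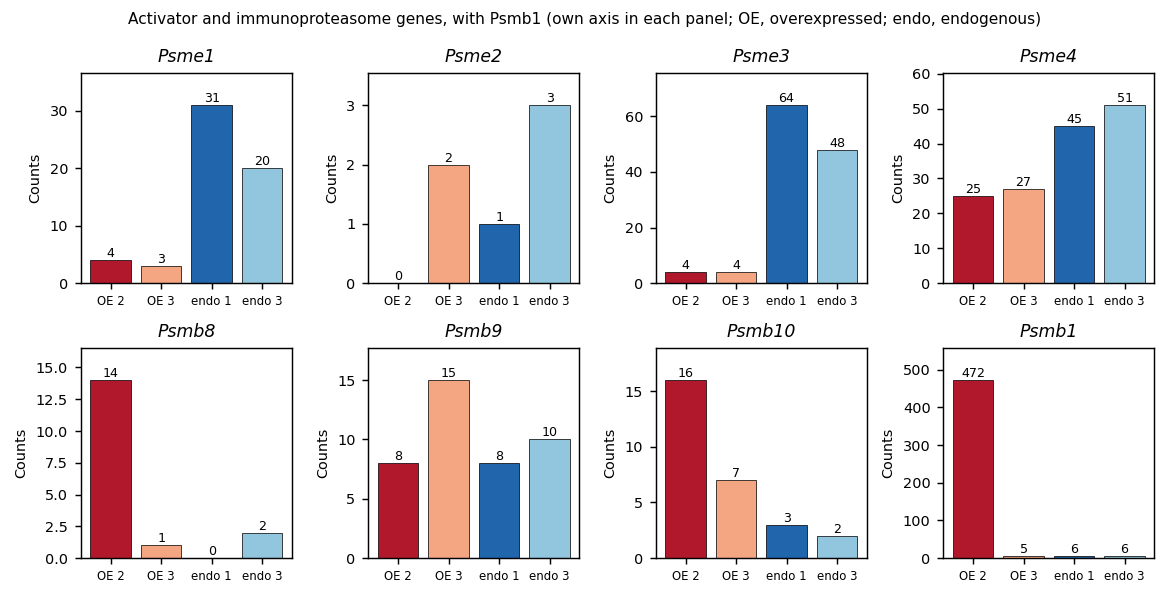
Deposited counts per library of the activators Psme1 to Psme4, the immunoproteasome genes and Psmb1, each panel with its own axis from 0 (overexpressed libraries in reds at the left, endogenous libraries in blues at the right). Psme1, Psme3 and Psme4 are lower in both overexpressed libraries, Psmb10 is higher in both, and Psmb1 and Psmb8 are high in overexpressed 2 alone.

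Among the 19S ATPases, which unfold substrates, Psmc1 and Psmc3 had replicates within 1.45-fold of each other after scaling. Psmc1, given above with its seed match, ranged from 23 to 38 counts, and Psmc3 had 20 and 18 counts in overexpressed 2 and 3, against 18 and 27 in endogenous 1 and 3. Psmc2 had 14 and 32 counts against 34 and 20, and its replicates differed 2.01-fold in overexpressed and 2.10-fold in endogenous libraries after scaling. The log2 fold change of Psmc3 was -0.09 ± 0.41, so no difference was detectable at this depth. Psmc6 differed from these, with 107 and 53 counts in overexpressed 2 and 3, against 325 and 11 in endogenous 1 and 3. Both overexpressed libraries lay between the endogenous ones, and its log2 fold change of -1.05 ± 1.46 turned to 3.27 without endogenous 1. Psmc4 had 1 and 2 counts against 5 and 10, and Psmc5 had 2 and 0 against 3 and 4. Because of Psmc6, the summed share of the ATPases (226 and 200 CPM in overexpressed 2 and 3, against 637 and 149 in endogenous 1 and 3) overlapped between groups.

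The 19S non-ATPase genes had a lower sum in both overexpressed libraries, carried by a few genes. Their share was 170 and 147 CPM in overexpressed 2 and 3, against 1243 and 350 in endogenous 1 and 3, and the log2 ratio of means was -2.33 with all libraries and -1.14 without endogenous 1. Psmd8, a lid subunit also known as Rpn12 (chromosome 7, 29174188 to 29180701), had 8 and 10 counts in overexpressed 2 and 3, against 443 and 44 in endogenous 1 and 3. The groups did not overlap, but the endogenous libraries differed 12.5-fold after scaling. Its log2 fold change was -4.75 ± 1.36 and -1.89 without endogenous 1. Psmd14, the deubiquitinase of the lid, had 40 and 2 counts in overexpressed 2 and 3, against 278 and 2 in endogenous 1 and 3. Each group thus held 1 high and 1 low library, and the log2 fold change of -2.68 ± 2.10 turned to 3.76 without endogenous 1. Psmd11, another lid subunit, had 7 and 5 counts, against 4 and 100. The large base subunits Psmd1 (16 and 21 counts in overexpressed 2 and 3, against 18 and 20 in endogenous 1 and 3) and Psmd2 (13 and 33, against 23 and 35) were close between groups, with log2 fold changes of 0.08 ± 0.39 and -0.22 ± 0.53. Of the 14 genes, 9 had under 20 counts in every library, among them the ubiquitin receptor Psmd4 and the assembly chaperones Psmd5, Psmd9 and Psmd10.

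**Figure D4:**
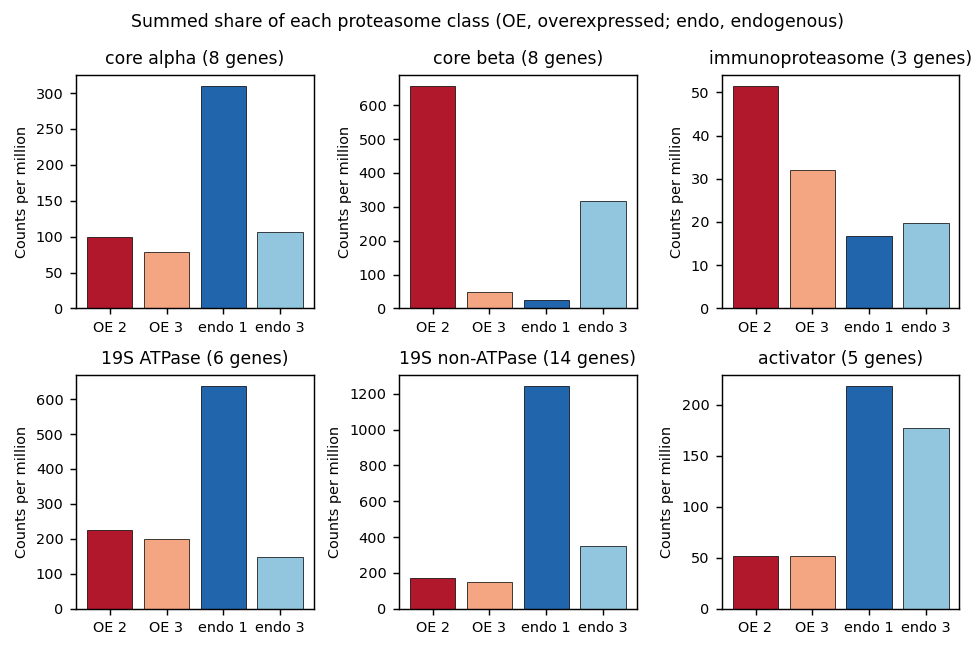
Summed CPM of each class in the 4 libraries, overexpressed (OE) at the left and endogenous (endo) at the right of each panel, each axis starting at 0. Activators are close within each group (51.5 and 51.7, from 38 and 37 counts, against 219 and 177, from 143 and 126 counts). The core beta sum is set by Psmb1 in overexpressed 2 and the 19S sums by endogenous 1.

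The activators, which dock on the ends of the core, had a lower sum in both overexpressed libraries. Psme1, Psme3 and Psme4 were apart between groups, and Psme2 and Psme2b overlapped. Of all tested genes, 18.0% were likewise lower in both overexpressed libraries, as were 14.3% of all genes with a count. The summed share of the activators was 51.5 and 51.7 CPM in overexpressed 2 and 3, against 219 and 177 in endogenous 1 and 3. Counts behind these sums were 38 and 37, against 143 and 126, so an SD from 2 libraries says little about spread. The means were 51.6 ± 0.107 and 198 ± 29.5 (SD, n = 2 each). The log2 ratio was -1.94, and it ran from -2.08 to -1.78 when 1 library was left out. Marker sums of dendritic cells (1372 and 1326 CPM in overexpressed 2 and 3, against 1732 and 1970 CPM in endogenous 1 and 3) and of erythroid cells (485 and 219, against 595 and 3482) were also lower in both overexpressed libraries. The order of the groups was thus that of the activator, core alpha and 19S non-ATPase sums. Within the endogenous group it differed: both marker sums were higher in endogenous 3, and those proteasome sums in endogenous 1. The dendritic cell genes split, 5 with positive log2 fold changes, such as H2-Aa (96 and 801 counts, against 7 and 9), and 5 with negative ones, such as H2-Ab1 (3 and 3, against 179 and 53). All 6 erythroid genes tested had negative ones. The part of these markers in these results was not tested. With 2 libraries in each group an exact permutation test cannot give a two-sided p below 0.333.

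Psme3, the nuclear activator known as PA28-gamma (chromosome 11, 101316213 to 101323537), had 4 and 4 counts in overexpressed 2 and 3, against 64 and 48 in endogenous 1 and 3. Both overexpressed libraries lay far below both endogenous ones, and the log2 fold change was -3.67 ± 0.57, from -4.00 to -3.15 without 1 library. By edgeR's quasi-likelihood test its Benjamini-Hochberg adjusted p over all genes was 0.814. Psme3 was the 1 activator above the receptor value.

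Psme1, the interferon-inducible alpha chain of the cytosolic activator (chromosome 14, 55578123 to 55581529), had 4 and 3 counts in overexpressed 2 and 3, against 31 and 20 in endogenous 1 and 3. Here too the groups did not overlap, and the log2 fold change was -2.72 ± 0.57 (adjusted p = 0.814 by the same edgeR test), from -3.14 to -2.08 without 1 library. Its partner Psme2, the beta chain, had 0 and 2 counts, against 1 and 3, and its close copy Psme2b had 5 and 1, against 2 and 4. A difference in Psme2 was not detectable at this depth (summed counts 1.83-fold lower with overexpression, exact interval 0.262 to 20.2), and values of both copies are uncertain because how reads matching both were counted is not given. The promoter of Psme1 is shown, since the interferon-stimulated response element, searched on both strands as GAAA, any 2 bases and GAAA again, was found in it (capitals, RefSeq, GRCm38.p6, chr14:55578244-55578543, plus strand).
Psme1 promoter: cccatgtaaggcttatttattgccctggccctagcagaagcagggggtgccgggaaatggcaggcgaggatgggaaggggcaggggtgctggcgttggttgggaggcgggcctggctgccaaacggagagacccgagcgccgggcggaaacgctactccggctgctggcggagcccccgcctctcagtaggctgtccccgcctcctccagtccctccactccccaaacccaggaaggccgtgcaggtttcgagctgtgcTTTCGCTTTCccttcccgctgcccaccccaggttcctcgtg
That pattern was held by 4 of the 37 members with a listed promoter (Psmb3, Psmd4, Psmd9 and Psme1) and by 3.44% of all listed promoters.

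Psme4, the large activator PA200 known from DNA repair and histone turnover (chromosome 11, 30771726 to 30880361), had 25 and 27 counts in overexpressed 2 and 3, against 45 and 51 in endogenous 1 and 3. Its replicates differed 1.05-fold in overexpressed and 1.09-fold in endogenous libraries after scaling, and the groups did not overlap. The log2 fold change was -0.75 ± 0.475 (adjusted p = 0.855 by the edgeR test), from -0.83 to -0.58 without 1 library.

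Across the family no difference between groups passed the test of the whole table. The count filter, about 10 counts in at least 2 libraries, left 16 of 44 members. Of these, 13 had negative and 3 positive log2 fold changes, beside 50.4% negative over all genes tested. Psme3, Psme1 and Psmd8 passed that filter only through the endogenous libraries, where they were high, so the split is a description. The split was 12 and 4 with RLE size factors, and 32 and 12 over all 44 members with no filter. By edgeR's quasi-likelihood test 0 of the 16 had an adjusted p under 0.05, as did 0.0% of all 10808 genes tested. At an unadjusted p under 0.05 there were 3 members (Psme3, Psme1 and Psmd8), beside 5.24% of all genes. All 3 passed the filter only through the endogenous libraries, so this count, and calls of these genes by filtered tests, are a description. The adjusted p of the 16 ran from 0.814 to 0.998, and their median log2 fold change was -0.56, beside -0.01 over all genes tested. Leaving out overexpressed 2 gave a median of -1.56 (24 members), and leaving out endogenous 1 gave -0.11 (25 members). Other tests of the same counts called some members. DESeq2 called Psme3 and Psmd8 lower (0.87% of all genes were called lower and 1.4% in either direction). It gave no adjusted p for some members, among them Psme1, Psma2, Psmb9, Psmb11, Psmc3 and Psmd1. The likelihood ratio test of edgeR called Psme3 and Psme1 lower (0.537% of all genes, beside 0.241% called higher and 0.777% in all). With no count filter the quasi-likelihood test called 7 members lower (Psmb7, Psmb6, Psme3, Psmd8, Psmb5, Psme1 and Psmd11) and 1 higher (Psmb1), beside 1.07% lower, 0.709% higher and 1.78% in all of 46089 genes. In the authors' deposited table, whose folds run as endogenous over overexpressed, 25 members are listed and 5 have an FDR under 0.05, as do 2.37% of its 17039 rows. With a positive value meaning lower with overexpression, the authors' deposited table gives log2 folds of -5.50 for Psmb1 (FDR 0.00398), 3.66 for Psme3 (0.00505), 4.77 for Psmd8 (0.0111), 2.72 for Psme1 (0.0169) and 2.78 for Psmd11 (0.0295). Of their scaled counts, 97.0% for Psmb1, 89.3% for Psmd8 and 83.5% for Psmd11 came from 1 library, as did 57.8% for Psme3 and 57.3% for Psme1. Over all 44 members, with no filter and counts scaled by TMM effective library size, 8 had both overexpressed libraries below both endogenous ones (Psmb4, Psmc4, Psmc5, Psma6, Psmd8, Psme1, Psme3 and Psme4), beside 14.3% of all genes with a count. In 4, Psmb2, Psmb3, Psmb9 and Psmb10, both were above on that scale, beside 13.8%. Of these, the unscaled counts of Psmb2 and Psmb3 tie and those of Psmb9 overlap between groups, and only those of Psmb10 are apart.

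Genes that work with the proteasome were counted from lists. Of 16 assembly and accessory symbols 14 were in the table and 7 were tested, with 3 positive and 4 negative log2 fold changes (median -0.03). Those with the smallest p in each direction were Pomp, the chaperone of core assembly (133 and 43 counts in overexpressed 2 and 3, against 27 and 54 in endogenous 1 and 3, log2 fold change 1.33 ± 0.81), Uchl5, a deubiquitinase of the 19S particle (11 and 17, against 5 and 19), Ecpas (19 and 15, against 18 and 39) and Sem1, a small lid subunit (29 and 1, against 1 and 50). Each of the 4 overlapped between groups. Of 22 genes of ubiquitin supply and shuttling 12 were tested, 4 with positive and 8 with negative values (median -0.48). The polyubiquitin gene Ubb, which encodes ubiquitin itself, had 3 and 0 counts in overexpressed 2 and 3, against 119 and 82 in endogenous 1 and 3, a log2 fold change of -5.84 ± 1.17. Uba6, a ubiquitin-activating enzyme, had 11 and 18 counts, against 16 and 410. In the positive direction the smallest p-values were those of Ddi2, the protease that activates Nfe2l1 (21 and 15, against 11 and 16), and Bag6 (62 and 42, against 32 and 53).

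For MHC class I loading and its inducers, 7 of 14 genes were tested, 5 with positive and 2 with negative values (median 0.65). The class I heavy chain H2-D1 had 254 and 8 counts in overexpressed 2 and 3, against 14 and 30 in endogenous 1 and 3, and the chaperone Pdia3 had 29 and 4, against 4 and 12. The interferon-gamma receptor chain Ifngr2 had 14 and 7 counts, against 11 and 19, and the light chain B2m had 400 and 16, against 271 and 306. Irf1, an interferon-induced transcription factor, had 0 and 2 counts, against 7 and 8, and was under the filter. Tap1, which is transcribed away from Psmb9 and overlaps its exons over 212 bases on the opposite strand, had 8 and 0 counts, against 5 and 53. By edgeR's quasi-likelihood test, 0 genes of the 3 lists had an adjusted p under 0.05. Unadjusted, 0 of 7, 2 of 12 and 0 of 7 tested genes had a p under 0.05 by that test in the assembly, ubiquitin and class I lists. Over all genes tested the share was 5.24%. Ubb was also called lower by DESeq2 (beside 0.87% of all genes tested) and by the likelihood ratio test (beside 0.537%). Ubb passed the count filter only through the endogenous libraries, where it was high, so these calls are a description.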

How the data were processed

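The deposited counts are raw whole numbers for each gene. Tools named in the submitters' processing notes are STAR, FastQC 0.11.8 and edgeR 3.24.3, with build mm10. How reads were assigned to genes (program, annotation, strand, multiple matches) is not given in the sources used here. The authors also deposited log2 fold changes, likelihood ratios, p-values with FDR values and a score (the signed -log10 p), per the file headers. The direction of those folds was read from the counts: 98.9% of shared genes had the opposite sign.

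All 55450 gene identifiers matched GENCODE vM21, which gave symbols, positions and exon lengths. Counts were fitted with edgeR 4.0.16 in R 4.3.3 (TMM scaling after filterByExpr on the groups, then the quasi-likelihood F test with the dispersions of earlier versions, Benjamini-Hochberg over all genes, threshold 0.05), with DESeq2 1.42.0 and limma 3.58.1 as alternatives. The quasi-likelihood, likelihood ratio and DESeq2 fits were tested on simulated data, and the other alternatives were not. The SE was taken as the size of the log2 fold divided by the root of its F statistic. Scaled counts use TMM effective library sizes, and CPM use library totals. Library totals of at most 737431 counts limit precision for low genes.

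Members, gene lists, the receptor measure and tests were chosen with earlier results of these data known. Values per library were set to be given for the 10 members with the most counts per kb, the 6 with the smallest p in each direction, the catalytic and immunoproteasome genes and the activators, and, per further list and direction, the 2 genes of smallest p. Further members, Ly6a, Flt3, Cd34, Ptprc, Nek6, Irf1 and Tap1 were added after their values were seen. A deposited subset of the authors' table was not used, and 1 listed gene is not reported here.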

Additional observations from a re-analysis of the deposited data

How the results depend on the processing

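The alternatives were another scaling, no count filter, other tools and leaving out each library. The number of genes called moved from 0 to 822 with no count filter (1.78% of those tested), 151 with DESeq2 (1.4%) and 84 with the likelihood ratio test (0.777%). The number of members moved to 8 of 44, 2 of 16 (some of the 16 without an adjusted p) and 2 of 16. The number of pathway genes moved to 6 of 49, 1 of 26 and 1 of 26. All were 0 under both other scalings, limma-voom, current edgeR dispersions and without any 1 library. The median log2 fold of tested members ran from -1.56 to -0.11 without 1 library, where the filter also let other members in. The number of members above the receptor value was 13 and 4 at the values that 90% and 99% of receptor genes do not exceed, and from 4 to 9 without 1 library. The log2 ratio of the summed share ran from -1.68 to -0.30. Psme3, Psme1, Psmd8, Psme4, Psma2 and Psmb9 kept their sign wherever they could be fitted. Signs turned for Psmc1 (0.017 with RLE size factors, 0.013 with upper-quartile factors, 0.0195 with no filter and 0.0195 with DESeq2) and for Psmc6 (0.28 with limma-voom). Without 1 library the log2 fold ran from -2.76 to 0.56 for Psma3, -2.81 to 0.86 for Psma7, -0.72 to 0.85 for Psmb11, -0.28 to 0.27 for Psmc1, -0.22 to 0.10 for Psmc3, -2.03 to 3.27 for Psmc6, -0.012 to 0.27 for Psmd1 and -6.16 to 3.76 for Psmd14. The causes were not tested. Leaving out a library leaves 1 in its group, which is assumed to vary like the other group. No paired analysis was possible because the analysed groups share only 1 replicate number.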
